A study of Caenorhabditis elegans with 2 samples.

Results

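Among genes that set the fate of touch receptor neurons in Caenorhabditis elegans, strong VAB-15 ChIP signal lay at vab-15 itself. The 10 genes described here are vab-15, unc-86, mec-3, alr-1, lin-32, egl-44, egl-46, zag-1, pag-3 and ahr-1, chosen by name from 19973 protein-coding nuclear genes. A deposited region belonged to a gene when its summit, the position of highest signal, lay inside the gene or within 5000 bp upstream of its annotated start. By this rule the 10 genes held 32 of the 30000 regions of the pooled list, 29 of 30000 in replicate 1 and 37 of 30000 in replicate 2. They held 4 of the 990 peaks of the authors' optimal set, and all 4 lay in the vab-15 window.

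The series profiled VAB-15 by ChIP-seq, which sequences the DNA recovered with a chromatin protein, in 1 group of 2 biological replicates. The animals were whole L1 larvae of strain XIL99, mixed in sex and starved after bleaching, and carried a CRISPR insertion at vab-15 that adds GFP-FLAG to the C-terminal end of the protein. Chromatin was sheared by sonication and recovered with an antibody against GFP. All animals carried the tagged allele, and a control experiment that the labels name was not used here, so the comparisons below are between regions and between genes and carry no test. In chromatin of whole animals, few cells with strong binding and many cells with weak binding cannot be told apart.

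Touch receptor neurons are the mechanosensory cells with which the worm feels gentle touch. Their identity is laid down by homeodomain proteins: UNC-86, of the POU class, switches on mec-3, and MEC-3, of the LIM class, joins UNC-86 on the promoters of genes such as mec-7 and mec-4. VAB-15, of the Msx class, is needed for these neurons to form, LIN-32 acts earlier as a proneural factor, and EGL-44, EGL-46 and PAG-3 keep the fate out of other neurons. Msx proteins are known to bind the core TAATTG, and UNC-86 with MEC-3 to bind sites holding AATGCAT.

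The sequences under the summits are shown for the 4 vab-15 peaks, because they carry the strongest signal of the set. Each runs from 50 bases before the pooled summit to 50 bases after it, on the plus strand of ce11, which is also the coding strand of vab-15. Capitals mark TAATTG on either strand, and the bases are those of the RefSeq genome.
vab-15 far upstream peak, chrX:9846071-9846171: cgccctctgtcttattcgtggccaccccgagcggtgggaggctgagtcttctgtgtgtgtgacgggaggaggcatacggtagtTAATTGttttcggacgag
vab-15 near upstream peak, chrX:9846820-9846920: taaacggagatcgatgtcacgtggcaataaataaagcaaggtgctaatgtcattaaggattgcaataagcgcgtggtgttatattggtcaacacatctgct
vab-15 earlier intron peak, chrX:9848370-9848470: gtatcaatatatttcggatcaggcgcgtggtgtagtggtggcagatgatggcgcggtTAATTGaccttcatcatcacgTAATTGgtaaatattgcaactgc
vab-15 later intron peak, chrX:9848577-9848677: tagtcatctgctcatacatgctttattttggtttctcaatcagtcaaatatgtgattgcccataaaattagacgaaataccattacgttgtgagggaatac

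Within 50 bp of the pooled summit, the pair of strongest vab-15 peaks held the core and the other pair did not. This split depends on the reach: 1 of the 4 peaks held TAATTG within 25 bp, and 3 did within 100 bp or anywhere in the deposited region. The intron peaks overlap, and the summit of the later one in replicate 2 had 1 copy within 50 bp. In the far upstream peak TAATTG began 33 bases after the summit. In the earlier intron peak there were 2 copies, which began 7 and 28 bases after the summit. The far upstream and earlier intron windows shared the run GTTAATTG, which was present in 5 of 990 optimal windows (0.505%) and in 0.355% of 14938 weaker regions, with 3873 copies on the 6 nuclear chromosomes. Weaker regions are those in the lower-ranked part of the pooled list, below rank 15000, that overlap no optimal peak.

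A longer run without the core joined the earlier intron peak to the near upstream peak. Both windows held GCGCGTGGTGT, 11 bases on the same strand, which began 28 bases before the summit in the intron and 18 bases after it in the near upstream peak. No other of the 990 optimal windows held it, on either strand, against 2 of 14938 weaker windows, and the 6 nuclear chromosomes held 42 copies. The later intron and near upstream windows shared a run of 10 bases on opposite strands, TGCTTTATTT, which no other optimal window held. It was in 5 weaker windows, with 822 copies on the chromosomes. The other shared runs were of 6 and 8 bases. All were found by comparing the 4 windows, after their values were seen.

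For each of 4 fixed motifs both strands were searched, and TAATT is common to the first pair named here. The core TAATTG was in 2 of the 4 vab-15 windows, against 10.4% of all 990 optimal windows and 6.87% of the weaker ones. TAATTA was in 0 of 4, against 4.04% of optimal and 3.21% of weaker windows. AATGCAT was in 0 of 4, against 1.72% of optimal and 1.66% of weaker windows. GAGCGC, a frequent run in the optimal set with 15.8% of windows against 1.87% of weaker ones, was also in 0 of 4. GC content was 57.4% in the far upstream window, 44.6% and 34.7% in the earlier and later intron windows and 40.6% in the near upstream one, against a median of 46.5% in the optimal set and 39.6% in the weaker regions.

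vab-15 (WBGene00006881) spans bases 9847275 to 9849805 of chromosome X, plus strand, and its window of 7531 bp held 6 regions in the pooled list, 7 in replicate 1 and 8 in replicate 2. Its far upstream peak (chrX:9845981-9846256) had its summit 1154 bp before the gene start, in sequence with no annotated gene. The authors' signal there was 403 in the pooled list, 263 in replicate 1 and 144 in replicate 2. Each list has its own scale, so these values are best read against the list's median: the peak stood 9.69, 8.69 and 8.39 times above it. It ranked 16 in the pooled list, 20 in replicate 1 and 5 in replicate 2, near the top of each.

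The intron held a pair of overlapping peaks, with summits 207 bp apart. vab-15 has 4 exons in the annotation, and both summits lay in the last of its 3 introns, which is 1046 bp long. The earlier intron peak (chrX:9848289-9848544) had a signal of 262 in the pooled list, 158 in replicate 1 and 108 in replicate 2, and ranked 78, 144 and 30. The later one (chrX:9848439-9848814) had 194, 102 and 92.0, and ranked 212, 489 and 50. Both replicates thus listed 2 separate regions here, and both placed the earlier above the later one.

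The near upstream peak was the weakest of the 4. At chrX:9846682-9847057 it had its summit 405 bp before the gene start and a signal of 119 in the pooled list, 81.2 in replicate 1 and 39.7 in replicate 2. It ranked 788, 883 and 922, inside the 990 strongest of each list by a small margin. The lowest signals among the 990 strongest were 108, 77.8 and 38.9.

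Both replicates placed the 4 vab-15 peaks in the same order, and their ranks among all regions differed. Of the 4, 3 ranked higher in replicate 2 than in replicate 1, and the near upstream peak ranked lower. Among the 970 optimal peaks with a region in both replicates, 406 (41.9%) ranked higher in replicate 2. Of the further regions of the window, the pooled one of rank 2154 was in both replicates, at ranks 3149 and 1223. Others came from 1 replicate alone. Replicate 1 had one more intron region at rank 848, 1577 bp after the gene start, whose pooled counterpart ranked 4725, and replicate 2 had no region over that summit. Replicate 2 had a region at rank 2328 in the 3' UTR.

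The labels place the tag at the end of the protein, and so at the end of the coding sequence, so distances to the stop codon are given. The summits of the intron peaks lay 693 and 486 bp before the end of the stop codon, the remaining intron region of the pooled list 247 bp before it, and the 3' UTR region of replicate 2 248 bp past it. The bases of the inserted tag are not in the reference. Whether the insertion bears on the signal in the intron was not tested.

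**Figure D1:**
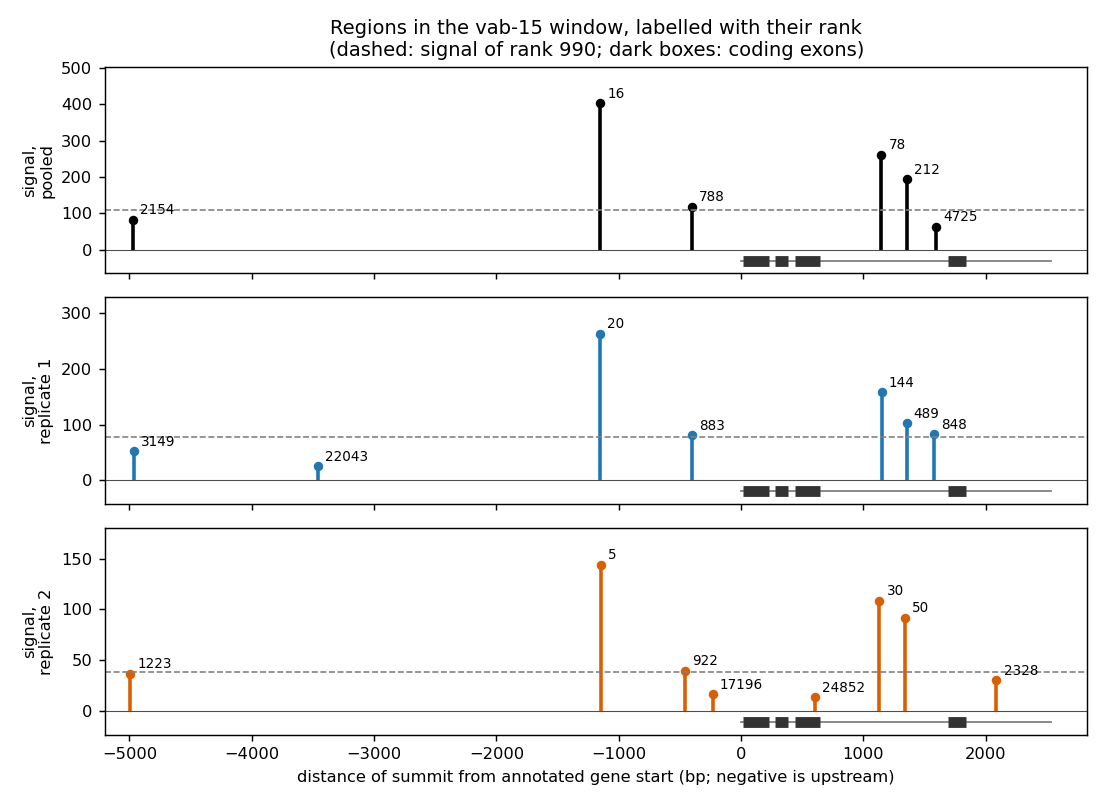
Authors' signal of each region in the vab-15 window (vertical lines, from 0, own scale per list) against the distance of its summit from the gene start in bp, in the pooled list and in replicates 1 and 2; numbers are ranks. The far upstream peak is the tallest in all 3 panels (ranks 16, 20 and 5), followed by the first and later intron peaks, and the near upstream peak stands just above the dashed line of rank 990.

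Few genes had as much strong signal around them. An optimal peak lay in the window of 1 of the 10 genes, against a background of 9.28% of the 19973 protein-coding genes, or 9.33% of the 15228 whose windows were as long as those of the 10 genes (6068 to 17029 bp). A count of 1 in 10 is close to that background. By number of peaks, 5 protein-coding genes held 4 or more optimal peaks, vab-15 among them. Another is lec-8, the next gene along the chromosome, whose upstream window holds the same 4 peaks, and the rest, mdl-1, R03E9.2 and W06H8.6, were named after their values were seen. By rank, 42 genes (0.210%) had a region as strong as that of vab-15 in the pooled list, 53 (0.265%) in replicate 1 and 15 (0.0751%) in replicate 2.

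The genes whose strongest regions were most like that of vab-15 were found from the best ranks in both replicates, as the distance between log10 ranks over these 2 samples. The closest was lec-8, which shares the far upstream peak with vab-15. Next came W02G9.3 and kel-8, at a distance of 0.162, which share 1 region of rank 17 in replicate 1 and rank 7 in replicate 2.

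**Figure D2:**
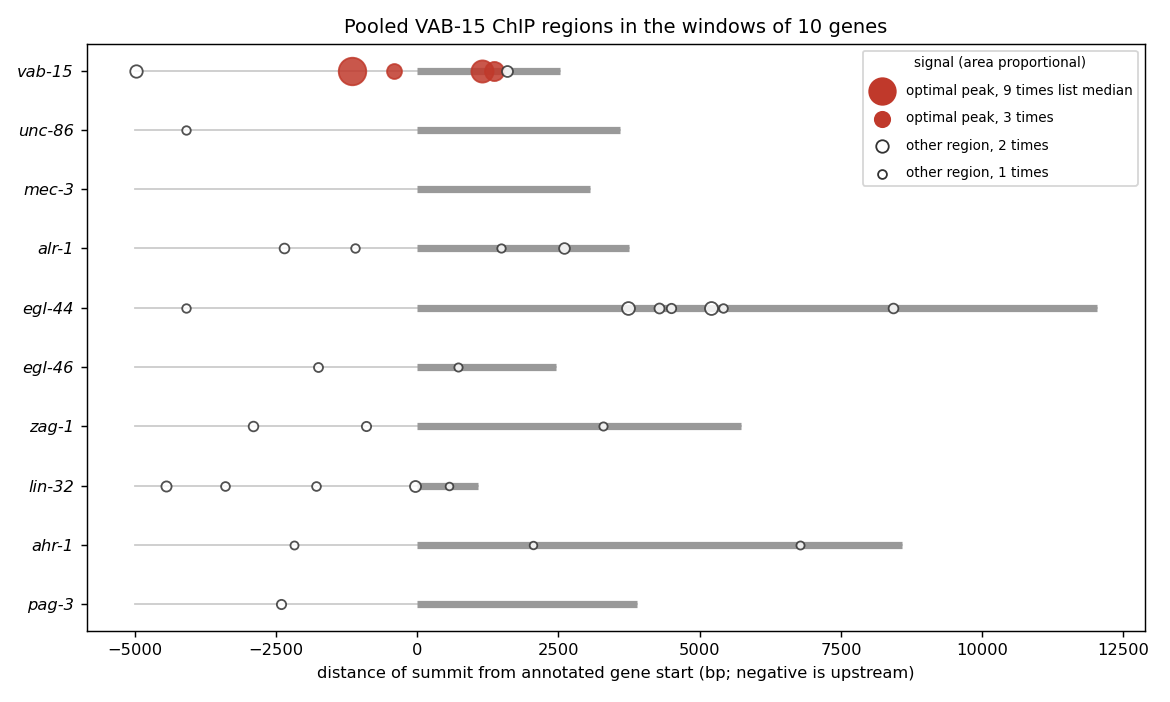
Pooled regions in the windows of the 10 genes; the horizontal axis is the distance of the summit from the gene start in bp, thick bars are the genes and thin lines the 5000 bp upstream. Circles have an area proportional to signal over the list median, and filled circles are optimal peaks; the 4 filled circles are all at vab-15, and the largest open ones apart from that gene are the 2 in egl-44.

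The genes of the activators UNC-86 and MEC-3 had weak regions or none. unc-86 (WBGene00006818), which encodes the POU homeodomain protein, lies on the minus strand of chromosome III from 8212740 to 8216336. Its window held 1 region in each list. The pooled one lay 4094 bp upstream at rank 17936 with a signal of 38.6, below the list median of 41.6. Replicate 1 had it at rank 26161 with a signal of 23.4, and replicate 2 had no region over it. The start of C30A5.16 is nearer to the pooled summit, at 2211 bp. Replicate 2 listed another region 1979 bp upstream at rank 29756, 96 bp inside the neighbouring gene C30A5.16. The replicates therefore had no unc-86 region in common.

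mec-3 (WBGene00003167), the LIM homeodomain gene that UNC-86 switches on, lies on the minus strand of chromosome IV from 10458816 to 10461867. It had no region in the pooled list and none in replicate 1. Replicate 2 listed 1, in a coding exon 1454 bp after the gene start, at rank 20529 with a signal of 15.1, below the list median of 17.2. A window with no region is common: 74.7% of protein-coding genes held at least 1 of the 30000 pooled regions, against 9 of the 10 genes, and 25.3% held none.

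The strongest listed regions of these genes are shown because UNC-86 and MEC-3 are the core of the pathway. Both windows are on the plus strand, while both genes are on the minus strand, and capitals mark TAATTG or AATGCAT on either strand.
unc-86 upstream region, chrIII:8220380-8220480: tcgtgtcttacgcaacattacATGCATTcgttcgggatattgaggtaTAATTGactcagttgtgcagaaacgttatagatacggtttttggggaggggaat
mec-3 coding exon region of replicate 2, chrIV:10460363-10460463: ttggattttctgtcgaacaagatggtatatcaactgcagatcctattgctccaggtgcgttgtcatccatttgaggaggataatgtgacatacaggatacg

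The unc-86 window held both motifs, around a summit nearer to the start of C30A5.16. TAATTG began 3 bases before the summit, and AATGCAT, read on the minus strand, began 29 bases before it. Of the 32 pooled regions of the 10 genes this was the only one with AATGCAT (3.13%), while 6 of 32 (18.8%) held TAATTG. These 6 include the 2 vab-15 peaks with the core. AATGCAT was in 1.72% of optimal and 1.66% of weaker windows, and TAATTG in 10.4% and 6.87%. The signal of the unc-86 region was below the median of the list. The mec-3 window held none of the 4 fixed motifs.

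alr-1 (WBGene00044330), whose Aristaless-type homeodomain protein makes the touch neuron fate reliable, lies on the minus strand of chromosome X from 11121871 to 11125620. Its window held 4 regions in the pooled list, 2 in replicate 1 and 5 in replicate 2. The strongest lay in a coding exon 2605 bp after the gene start. Its signal was 60.7 in the pooled list, 44.7 in replicate 1 and 17.7 in replicate 2, at ranks 5276, 5071 and 13915. The start of R08B4.3 is nearer to this summit, at 2010 bp.

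lin-32 (WBGene00003018), a proneural gene of the Atonal type that is needed for the neurons to be made, lies on the minus strand of chromosome X from 2229055 to 2230122. It is the shortest of the 10 genes, and its window held 5 regions in the pooled list, 4 in replicate 1 and 5 in replicate 2. Its strongest pooled region had its summit 36 bp before the gene start, the closest to a start among the strongest regions of the set. The signal there was 64.3 in the pooled list, 42.4 in replicate 1 and 22.9 in replicate 2, at ranks 4504, 5958 and 6418. Both replicates listed this promoter region, at 1.40 and 1.33 times their medians. In replicate 2 other lin-32 regions ranked above it, at 5224 (1705 bp upstream) and 5732 (3311 bp upstream).

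Among the genes that keep the touch neuron fate out of other cells, egl-44 had the strongest regions. egl-44 (WBGene00001208), which encodes a TEA domain factor, lies on the plus strand of chromosome II from 5928802 to 5940830. Its window of 17029 bp, the longest of the 10, held 7 pooled regions, and 5 of these lay within 1673 bp of each other, in the long first intron. Besides vab-15 it was the only one of the 10 with a pooled region of q at or under 0.01, the false discovery value of the deposited list: 2 of 10 genes had one, against 16.6% of protein-coding genes.

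The 2 strongest egl-44 regions lay on either side of a group of annotated transcript starts inside the gene. Its 13 transcripts start at 9 positions, of which 3 lie 4684 to 4735 bp after the first. The region at rank 1736 (chrII:5933822-5934197) had its summit 5208 bp after the gene start and 473 bp after the nearest of these inner starts. The region at rank 1803 (chrII:5932349-5932724) had its summit 3735 bp after the gene start and 949 bp before the nearest inner start. Both summits were thus far from the first gene start and nearer to an inner one.

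The replicates gave these regions different weight. The rank 1736 region had a signal of 88.8 in the pooled list, 62.4 in replicate 1 and 40.3 in replicate 2, at ranks of 1858 and 879 in the replicates. Its summit lay 5175 bp after the gene start in replicate 1 and 5386 bp after it in replicate 2, where the pooled summit falls near the edge of the region. That replicate 2 region is also the counterpart of the pooled region of rank 16735, whose summit, 5408 bp after the gene start, is the nearer one, so its rank and signal belong to both. The rank 1803 region had a signal of 87.5, 38.2 and 51.7 in the same lists, at ranks of 8065 and 418. Replicate 2 had a region over each pooled summit within its 990 strongest, and replicate 1 had neither there. The second of them stood at 3.01 times the median in replicate 2 and at 1.26 times in replicate 1. A region among the 990 strongest of each replicate was found for 1 of the 10 genes, vab-15, against 5.85% of protein-coding genes.

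The windows of the 2 egl-44 regions are shown as the strongest signal outside vab-15, a choice made after the values were seen, on the plus strand, which is the coding strand.
egl-44 region of rank 1736, chrII:5933960-5934060: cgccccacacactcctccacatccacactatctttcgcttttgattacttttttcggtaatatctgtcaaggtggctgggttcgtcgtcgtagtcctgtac
egl-44 region of rank 1803, chrII:5932487-5932587: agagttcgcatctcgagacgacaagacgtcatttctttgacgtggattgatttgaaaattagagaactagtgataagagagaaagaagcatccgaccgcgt
Neither held any of the 4 fixed motifs within 50 bp of the pooled summit. The pooled egl-44 region of rank 7988, between them, held 2 copies of TAATTG. GC content was 48.5% and 42.6% in the printed windows.

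**Figure D3:**
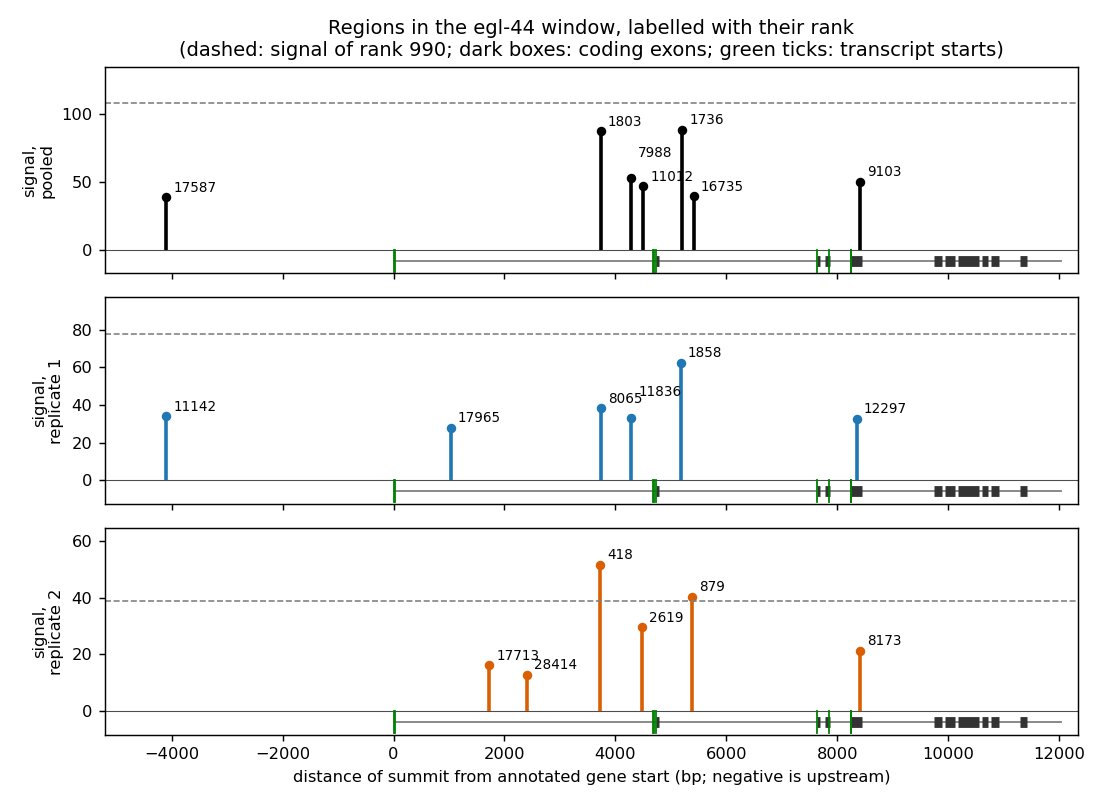
Authors' signal of each region in the egl-44 window (vertical lines, from 0, own scale per list) against the distance of its summit from the first gene start in bp; numbers are ranks and green ticks the annotated transcript starts. In replicate 2 the regions of rank 418 and 879 pass the dashed line of rank 990, and in replicate 1 the strongest region, of rank 1858, stays below it.

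egl-46 (WBGene00001210), a zinc finger gene whose product works with EGL-44, lies on the minus strand of chromosome V from 6679123 to 6681573. It held 2 regions in the pooled list, 0 in replicate 1 and 3 in replicate 2. The strongest, 1761 bp upstream, had a signal of 42.9 in the pooled list at rank 13889, and of 18.9 in replicate 2 at rank 11733. Its window held 1 copy of TAATTG. The partners EGL-44 and EGL-46 thus had genes of unlike signal, the second near the median of its list.

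zag-1 (WBGene00006970), a ZEB-type zinc finger homeodomain gene that opposes egl-44 and egl-46, lies on the plus strand of chromosome IV from 3855843 to 3861569. It held 3 regions in the pooled list and 5 in each replicate. The strongest pooled one lay 2909 bp upstream, with a signal of 49.3 at rank 9503, and ranked 17677 in replicate 1 and 27152 in replicate 2. Another lay 905 bp upstream at rank 11842, and its counterpart was the strongest zag-1 region of replicate 2, at rank 4912 with a signal of 24.7, while replicate 1 had it at rank 22955. The strongest zag-1 region of replicate 1 was another, in an intron 2758 bp after the gene start, at rank 13640 with a signal of 31.4, and no pooled region of the window had its summit there. The strongest region of zag-1 was thus a different one in each list.

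pag-3 (WBGene00003909), a Gfi-type zinc finger gene that blocks touch neuron genes in a sister cell, lies on the minus strand of chromosome X from 14950752 to 14954648. Each list held 1 region in its window, each at another place, 2406 bp upstream in the pooled list, 1798 bp in replicate 1 and 357 bp in replicate 2. Their ranks were 11767, 27693 and 27118. The pooled summit lay in no region of either replicate.

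ahr-1 (WBGene00000096), the aryl hydrocarbon receptor gene, which acts in some touch neurons to keep them from another sensory fate, lies on the plus strand of chromosome I from 9522550 to 9531132. It held 3 regions in the pooled list, 3 in replicate 1 and 2 in replicate 2. The strongest pooled one lay in a coding exon 6776 bp after the gene start, with a signal of 34.7 at rank 22414. Replicate 1 had no region over its summit, and replicate 2 had one at rank 23674. The start of cylc-2 is nearer to this summit, at 1885 bp. All 3 pooled regions were below the list median. The region at rank 22414 was the weakest best region among the 9 genes that had one.

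Set in order by the strongest pooled region, vab-15 came first, then egl-44, lin-32, alr-1, zag-1, pag-3, egl-46, unc-86 and ahr-1, with mec-3 unlisted. vab-15 kept its distance from egl-44 in both replicates, with best ranks of 20 and 5 against 1858 and 418. egl-44 in turn stood above the rest in both. Below it the replicates overlapped: the best ranks were 5958 and 5224 for lin-32, 5071 and 13915 for alr-1 and 13640 and 4912 for zag-1, so the order among these 3 does not exceed the spread between replicates.

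**Figure D4:**
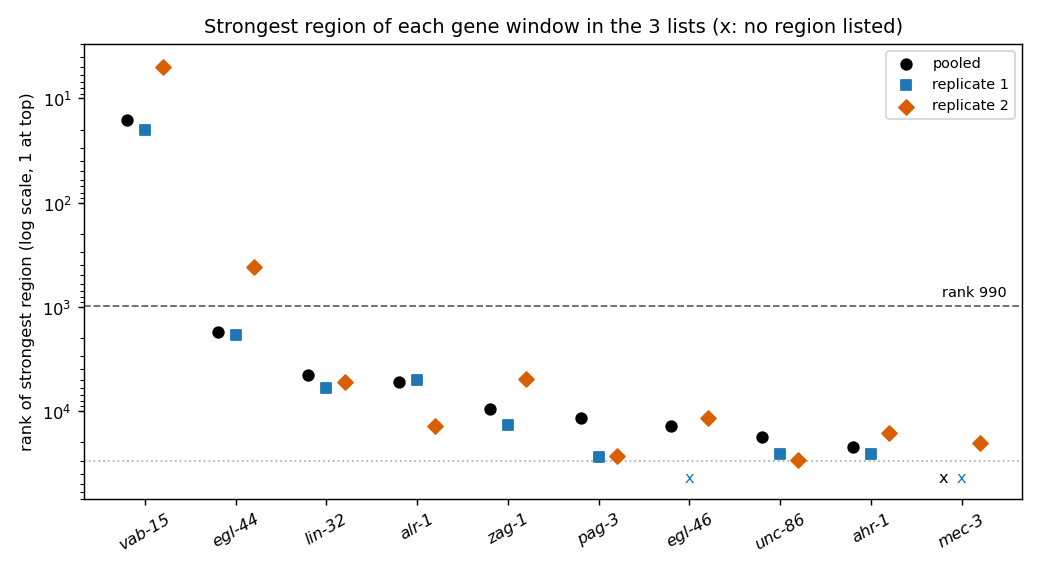
Rank of the strongest region in each gene window (log scale, strongest at the top) in the pooled list (circles), replicate 1 (squares) and replicate 2 (diamonds); an x marks a list with no region. Only vab-15 lies above the line of rank 990 in all 3 lists, and egl-44 does so in replicate 2 at rank 418.

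Apart from vab-15, the genes were spread over the range of protein-coding genes. The shares given here were not matched for window length, and the egl-44 window is the longest of the 10. The share of protein-coding genes with a region at least as strong in the pooled list was 14.004% for egl-44, 27.6% for lin-32, 30.6% for alr-1, 43.2% for zag-1, 48.7% for pag-3, 53.2% for egl-46, 60.5% for unc-86 and 66.9% for ahr-1. The median best rank was 9503 over the 9 genes with a region, against 7389 over the 14915 protein-coding genes with one. Regions were spaced at 3.31 per 10000 bp in the windows of the 10 genes, and at 2.92 without vab-15, against 3.20 over all protein-coding windows of the pooled list. In replicate 1 the values were 2.999, and 2.47 without vab-15, against 3.16, and in replicate 2 they were 3.83, and 3.25 without vab-15, against 3.20.

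**Figure D5:**
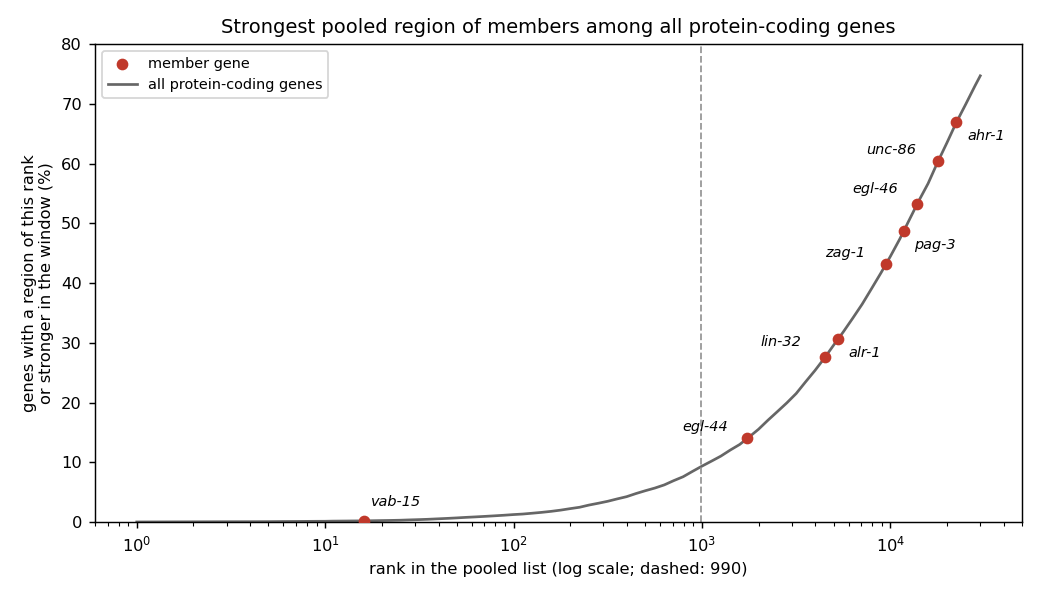
Share of the 19973 protein-coding genes (line) whose window holds a pooled region of a given rank or stronger, with the horizontal axis on a log scale, and the 9 genes with a pooled region (points) at the rank of their strongest one. vab-15 is at 0.210%, egl-44 at 14.004% and the others between 27.6% and 66.9%.

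Beyond the windows, the median distance to the closest optimal peak was not larger for the 9 genes other than vab-15 than for genes in general. The nearest was 12866 bp from the start of lin-32, the summit of a peak whose nearest gene start is that of rpl-11.2. It was 22025 bp away for mec-3 and 34162 bp for unc-86, the median of the 9 genes other than vab-15, against a median of 40197 bp over all protein-coding genes. The distances for zag-1 (28920 bp) and alr-1 (31407 bp) were also below 40197 bp. Those for egl-44 (47993 bp), pag-3 (86272 bp), ahr-1 (97447 bp) and egl-46 (175905 bp) were above it. A region outside the windows lay 1902 bp past the end of lin-32, at rank 1596 with a signal of 91.3, above that of any pooled egl-44 region. At the edge of the 5000 bp limit, vab-15 had a pooled region just inside, 4971 bp upstream (rank 2154, signal 82.5), whose nearest gene start is that of ipla-2. The first region outside lay 6211 bp upstream of vab-15 (rank 1852, signal 86.8).

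Genes that act beside or after the 10 were counted by the same rule, in lists drawn up by name with earlier results of these data known. Of 12 partner and upstream genes, such as the LIM cofactor gene ldb-1, the Spalt-type gene sem-4 and Hox genes, 3 had an optimal peak, against 9.28% of protein-coding genes. These were unc-62, with a signal of 169 at rank 323, mab-5, with 134 at rank 602, and lin-14, with 126 at rank 691. The unc-62 peak lay 10788 bp after the gene start, nearer to the start of T28F12.1. The windows of lin-14 and unc-62, of 25312 and 18989 bp, are longer than any of the 10. The share of 9.28% was not matched for length. A region among the 990 strongest of each replicate was found for 2 of the 12 genes, against 5.85% of protein-coding genes. Of 13 genes that make up the touch receptor apparatus, such as the channel gene mec-4 and the tubulin gene mec-7, 0 had an optimal peak. The background for this count is the same 9.28%, and 0 of 13 is not far from it. The best-ranked of the 13 was mec-10, at rank 4031. The median over the 12 with a region was 14897.5, against 7389 over all protein-coding genes with one.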

How the data were processed

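VAB-15 was profiled by ChIP-seq in 2 biological replicates of 1 group. Per the notes deposited beside the lists, each replicate and the pooled data gave 30000 narrowPeak regions, peaks with background for the irreproducible discovery rate procedure, from alignments with a control alignment, and the optimal set was made from these lists. Aligner and peak caller: not given in the sources used here. The authors' signal per region has a scale of its own in each list and was used only to describe and rank. The deposited -log10 q-value was read as the narrowPeak format defines it: 2161 pooled regions reached 2. Depth is unknown, and lists of preset length hold background.

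Lists on ce11 were used, and those on ce10 were not used here. Genes came from Ensembl release 115 and bases from the RefSeq genome, both WBcel235, which is ce11; 9 of the 10 genes have the same span in RefSeq, egl-44 excepted. Positions are counted from 1. The optimal peaks were the 990 strongest pooled regions. A pooled region's counterpart in a replicate is the highest-ranked region that holds its summit. The named regions are all optimal peaks in the windows, each gene's strongest region and any within rank 3000. Members and lists were chosen with earlier results of these data known. Window and motif code was tested on simulated data (Python 3.11.15).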

Additional observations from a re-analysis of the deposited data

How the results depend on the processing

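With 2000 or 10000 bp upstream, only the gene a summit lies in or is nearest to, or the stronger part of the optimal set (the 495 strongest), vab-15 remained the 1 gene of the 10 with an optimal peak. Leaving out a replicate and taking the 990 strongest regions of the other gave 1 to 2 genes, the second being egl-44 without replicate 1. The share of protein-coding genes was 8.62% without replicate 1 and 9.23% without replicate 2. Inside genes only, 2 optimal peaks were left in place of 4, the pair in the vab-15 intron, and 3 were left when overlapping peaks were merged. The share of protein-coding genes with an optimal peak was 6.49% with 2000 bp upstream and 13.4% with 10000 bp. It was 1.26% inside genes, 4.50% with the nearest gene only and 5.21% with the stronger part of the set. The median best rank was 5276 with 2000 bp upstream and 20729 inside genes, where fewer of the 10 genes have a region. Among the 1980 strongest regions of each replicate, 2 of the 10 genes, vab-15 and egl-44, were found in both. Within rank 1995, 15.7% of protein-coding genes had a region in replicate 1 and 15.2% in replicate 2. These shares are for single replicates. The share with one in both was not computed, so the count of 2 genes has no matching background. Within 25 bp of the summit 1 of the 4 optimal peaks held TAATTG, and within 100 bp 3 did. All 4 stayed within the 990 strongest of both replicates under each way of matching regions. Over 45 combinations of a gene and a setting, 29 best ranks moved by under 1.5 times, 10 moved by more, and in 6 the gene had no region left (unc-86 in 3, pag-3 in 2, egl-46 without replicate 2). No paired analysis was possible because there is 1 group. Depth is unknown, so a weak or absent region does not show that VAB-15 was not there.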
